A study of Mus musculus with 2 samples.

Results

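The genes described here are 10 that put intracellular peptides onto major histocompatibility complex (MHC) class I molecules: the light chain B2m, the heavy chains H2-K1 and H2-D1, the peptide transporter Tap1 and Tap2, the loading factor Tapbp, the immunoproteasome subunits Psmb8, Psmb9 and Psmb10, and the proteasome activator subunit Psme1. They were found by gene name among the gene probes of a mouse expression array, which carried 27845 gene names on 41174 probes, and they took 15 probes on 33 spots per array. 9 of the 10 genes had a probe; none carried the name H2-D1, and none outside the list mapped to a listed gene by accession or synonym. The tissue was the pancreatic lymph node, the node that drains the pancreas, of female non-obese diabetic (NOD) mice aged 16 weeks. The 2 hyperglycemic mice, with blood glucose above 500 mg/dl, were each labelled with Cy5 on 1 array, and a pool of 2 euglycemic mice, below 200 mg/dl, was labelled with Cy3 on each array. The replicates are thus the 2 hyperglycemic mice (n = 2). The labels describe the pool of both arrays in the same words, so it was counted as 1 control sample and the spread among euglycemic mice was not measured. All mice were of the inbred NOD strain, with no transgene or treatment named.

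MHC class I molecules display peptides cut from proteins of the cell itself to CD8 T cells. Interferon-gamma replaces the catalytic subunits of the ordinary proteasome with Psmb8, Psmb9 and Psmb10, and the resulting immunoproteasome, helped by the PA28 activator of Psme1 and Psme2, cuts peptides whose ends fit class I molecules well. The Tap1-Tap2 transporter moves them into the endoplasmic reticulum, where Tapbp (tapasin) holds an empty heavy chain and B2m beside it until a peptide is bound. In NOD mice, CD8 T cells that recognise islet peptides on class I molecules take part in the destruction of beta cells.

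Promoter windows of members are shown because interferon response and class I enhancer elements are textbook features of these genes. Each window is 300 bases of RefSeq sequence on build GRCm38.p6, with 250 bases before the annotated start and 50 after it, and comes from the reference strain and not from NOD mice. Capitals mark matches, on either strand, to AANNGAAA (the core letters of an interferon regulatory factor site), an NF-kappa-B core (GGGA and CC with any 4 bases between) and TGACG (the core of the class I X2 box and of a CRE), where capitals of overlapping matches run together. The windows are B2m (chr2:122147437-122147736, plus strand), H2-K1 (chr17:34000298-34000597, minus strand), Psmb9 (chr17:34187281-34187580, minus strand), Psmb8 (chr17:34197945-34198244, plus strand) and Psme1 (chr14:55578244-55578543, plus strand).
B2m: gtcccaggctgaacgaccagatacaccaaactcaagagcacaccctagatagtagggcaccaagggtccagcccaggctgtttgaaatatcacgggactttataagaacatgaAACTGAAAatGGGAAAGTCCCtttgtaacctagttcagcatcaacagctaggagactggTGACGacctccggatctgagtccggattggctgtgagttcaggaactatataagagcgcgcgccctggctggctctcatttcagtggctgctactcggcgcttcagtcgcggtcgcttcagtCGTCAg
H2-K1: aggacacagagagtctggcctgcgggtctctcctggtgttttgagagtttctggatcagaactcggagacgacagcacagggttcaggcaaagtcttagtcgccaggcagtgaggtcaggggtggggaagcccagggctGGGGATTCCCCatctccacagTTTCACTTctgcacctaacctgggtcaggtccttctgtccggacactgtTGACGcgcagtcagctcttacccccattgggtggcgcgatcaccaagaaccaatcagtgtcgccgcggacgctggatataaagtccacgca
Psmb9: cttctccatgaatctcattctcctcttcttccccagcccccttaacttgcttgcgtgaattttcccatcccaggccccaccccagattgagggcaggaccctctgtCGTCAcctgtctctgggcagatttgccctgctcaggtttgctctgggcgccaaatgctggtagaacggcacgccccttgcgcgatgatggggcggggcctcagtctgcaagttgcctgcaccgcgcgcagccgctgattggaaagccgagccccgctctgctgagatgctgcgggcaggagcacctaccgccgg
Psmb8: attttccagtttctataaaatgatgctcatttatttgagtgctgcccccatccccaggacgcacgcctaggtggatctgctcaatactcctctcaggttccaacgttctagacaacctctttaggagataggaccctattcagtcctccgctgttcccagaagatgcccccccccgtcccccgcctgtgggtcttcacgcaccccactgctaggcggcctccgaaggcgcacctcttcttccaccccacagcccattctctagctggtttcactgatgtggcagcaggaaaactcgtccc
Psme1: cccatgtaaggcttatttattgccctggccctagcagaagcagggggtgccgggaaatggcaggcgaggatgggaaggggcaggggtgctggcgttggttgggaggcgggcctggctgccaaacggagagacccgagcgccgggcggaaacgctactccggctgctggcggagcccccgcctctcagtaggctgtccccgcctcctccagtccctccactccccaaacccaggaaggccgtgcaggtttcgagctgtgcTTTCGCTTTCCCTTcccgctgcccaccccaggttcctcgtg

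9 of the 10 genes matched a window, and Tap2 is named only. AANNGAAA was found in 4 of these 9 genes (B2m, H2-K1, H2-D1 and Psme1), against 23.9% of 32851 mouse windows of the same length. In Psme1 its 2 overlapping matches lay after the start, at 9 and 15 bases. The H2-K1 and H2-D1 windows share long stretches of sequence, so matches in these genes are not independent. The NF-kappa-B core was found in 3 of 9 (B2m, H2-K1 and H2-D1), against 20.7% of all windows, and TGACG in 5 of 9 (B2m, H2-K1, H2-D1, Tap1 and Psmb9), against 20.8%. The order of the elements differs between both chains of the class I molecule. In B2m the AANNGAAA match began 137 bases before the start and lay upstream of the NF-kappa-B matches at 127 and 126. In H2-K1 the AANNGAAA match at 90 bases before the start lay downstream of the NF-kappa-B matches at 111 and 110. H2-K1 has a second window, from another annotated start and not printed here. There the same matches lay at 104 bases and at 125 and 124. Psmb9 and Tap1 are transcribed away from each other, and their windows share 275 bases, so that the single TGACG match in each is the same site read on opposite strands. The windows of Psmb8, Psmb10 and Tapbp held none of these letters. A match describes the letters in this window and shows no binding of a factor.

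Each log2 ratio below is that of the scanning software's processed signals, hyperglycemic mouse (Cy5) over euglycemic pool (Cy3) on 1 array, so that a value below 0 means less signal in the hyperglycemic mouse. A probe was tested where both channels of both arrays stood well above background. limma tested its mean ratio against 0, and p-values were adjusted by the Benjamini-Hochberg method over all 5068 such probes and called at an adjusted p under 0.05. The Cy5 channel was dim. The median Cy5 spot signal was 37.7 and 38.2 on the 2 arrays over a background of 35, against 234 and 81.2 in Cy3, and no spot was saturated. In Cy5, 14.5% and 16.4% of gene spots stood well above background, and in Cy3 21.7% and 63.0%. Dye normalization scaled Cy5 up by 103-fold and 38.6-fold relative to Cy3. The ratios of both mice correlated over the tested probes, which are not independent replicates, with r = 0.829, and both share the pool. Cy5 held the hyperglycemic mouse on both arrays, so a dye bias of a single probe and the difference between the groups cannot be told apart. Of the marker genes used below, 6 of 10 for T cells and 4 of 8 for B cells stood well above background in both channels. All 13 exocrine pancreas genes on the array did so too.

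The class I genes were lower in the hyperglycemic nodes or did not pass the test, and none was called higher. Of the 15 probes, 11 from 7 genes passed the filter on dim probes. Of these, 6 were called lower, from the 5 genes Psmb8, Psmb9, H2-K1, Psme1 and B2m, where 18.4% of all tested probes were called lower. 0 were called higher, where 25.2% of all tested probes were, and 0 passed an unadjusted p under 0.05 in that direction. 10 of the 11 lay below 0 in both mice, against 37.4% of all tested probes. Their median log2 ratio was -0.60, beside 0.06 over all tested probes, whose middle 50% ran from -0.34 to 0.49. Fewer cells that express a gene and less RNA per cell cannot be told apart in whole nodes. The calls were lost when probes above background in only 1 channel were admitted. limma then called 0 of 12 members and 0 of all probes, with 6 members lower at an unadjusted p under 0.05. The reason for this loss was not tested.

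**Figure D1:**
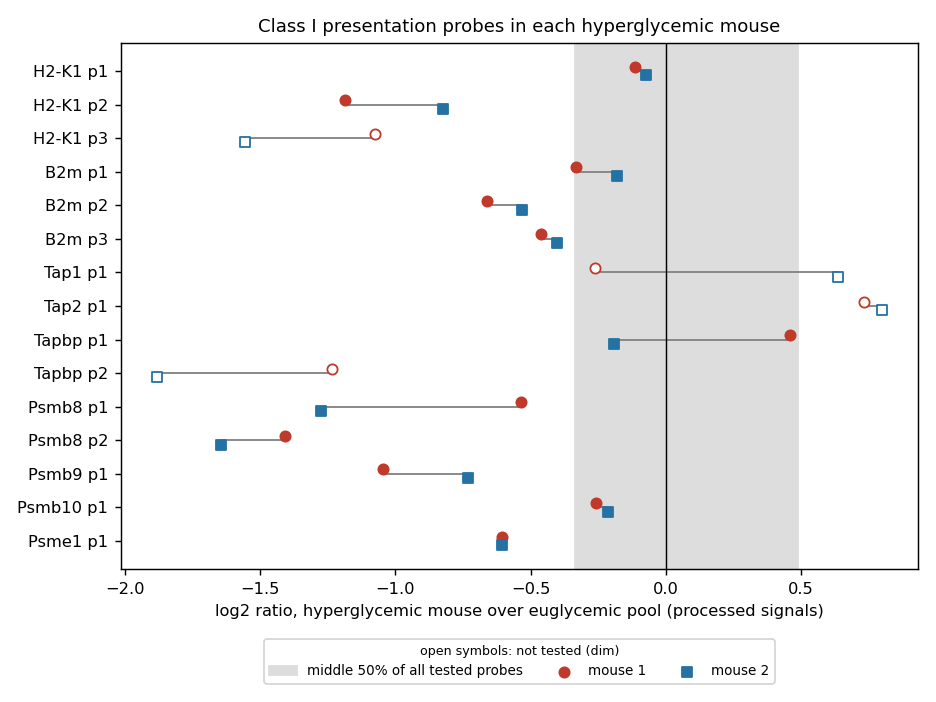
The log2 ratio of processed signals (horizontal axis) for each of the 15 probes (rows; p1 to p3 number a gene's probes) in hyperglycemic mouse 1 (circles) and mouse 2 (squares), each over the euglycemic pool. Filled symbols are tested probes and open ones dim probes; the grey band is the middle 50% of all tested probes, from -0.34 to 0.49, and both Psmb8 probes, Psmb9, Psme1, H2-K1 p2 and B2m p2, all called lower, lie left of it in both mice, as does B2m p3, which was not called.

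Of the 3 immunoproteasome subunits, 2 were called lower. Psmb8 (LMP7), which replaces the chymotrypsin-like subunit Psmb5, has 2 probes. Its probe 2 (chr17:33811038-33811097, build mm8, plus strand) had processed signals of 1758 and 2505 in hyperglycemic mice 1 and 2, against 4665 and 7832 in the pool on the same arrays. Both mice were well below the pool. The log2 ratios of -1.41 and -1.64 gave a mean of -1.53 ± 0.17 (SD, n = 2), a 2.88-fold lower signal, with a 95% interval of -1.90 to -1.15 and a limma adjusted p of 0.000918. It was the lowest mean among the tested members.

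Psmb8 probe 1 (chr17:33811095-33811419, plus strand) overlaps the end of probe 2 and spans 325 genomic bases, where most probes span 60. Its processed signals were 3269 and 2602 in the hyperglycemic mice, against 4734 and 6294 in the pool. Both mice were again below the pool, but by unequal amounts. The log2 ratios were -0.53 and -1.27, with a mean of -0.90 ± 0.52 (SD, n = 2), a 1.87-fold lower signal and a limma adjusted p of 0.0114. Probe 2 minus probe 1 was -0.87 in mouse 1 and -0.37 in mouse 2, so both probes gave the same direction and differed in size.

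Psmb9 (LMP2), which replaces Psmb6, was measured by 1 probe at chr17:33792517-33792576 (minus strand). Its processed signals were 2136 and 4316 in the hyperglycemic mice, against 4411 and 7160 in the pool. Each mouse was below the pool of its own array. The log2 ratios of -1.05 and -0.73 averaged -0.89 ± 0.22 (SD, n = 2), which is 1.85-fold lower (limma adjusted p = 0.0053, 95% interval -1.27 to -0.51).

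Psmb10 (MECL-1) replaces Psmb7 and is the one of the 3 inducible subunits encoded outside the MHC. Its probe at chr8:108824906-108824965 (minus strand) read 9289 and 14923 in the hyperglycemic mice, against 11117 and 17286 in the pool. The log2 ratios of -0.26 and -0.21 averaged -0.24 ± 0.03 (SD, n = 2) and did not pass the test (limma adjusted p = 0.246, 95% interval -0.59 to 0.12). The interval leaves room for a small difference in either direction. Within each mouse the Psmb10 ratio was the least negative of the 3 subunits: Psmb9 minus Psmb10 was -0.79 in mouse 1 and -0.52 in mouse 2, Psmb8 probe 2 minus Psmb10 was -1.15 and -1.43, and Psmb8 probe 1 minus Psmb10 was -0.28 and -1.06. These differences between probes were not tested.

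Psme1 (PA28 alpha) is a subunit of the ring that opens the proteasome core. Its probe at chr14:54535428-54535487 (plus strand) read 4117 and 7028 in the hyperglycemic mice, against 6262 and 10705 in the pool. Both ratios were -0.61, with an SD of 0.0014 over the 2 mice, a 1.52-fold lower signal (limma adjusted p = 0.0169, 95% interval -0.96 to -0.25). limma moderated this SD toward the spread of all tested probes.

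The subunits that make up the ordinary proteasome did not move as a group. Of 27 constitutive proteasome genes tested, 3 were called lower, 3 higher and 21 neither, with a median log2 ratio of 0.05. By gene, 18.2% of all 4403 genes tested were called lower and 25.4% higher. Psmb5, the subunit that Psmb8 replaces, was itself lower, at -0.85 and -0.97 (mean -0.91, limma adjusted p = 0.00393). Psmb8 probe 2 minus Psmb5 was -0.56 and -0.67, while Psmb8 probe 1 minus Psmb5 was 0.32 and -0.30, so the order of this pair depends on the Psmb8 probe. Psmb6 had a mean ratio of -0.05 and did not pass the test (limma adjusted p = 0.804), and Psmb9 minus Psmb6 was -0.94 and -0.73. Psmb7 was not well above background in the hyperglycemic mice, and the pool measured it on array 2 alone. The other called genes were the ATPase Psmc4 (-0.64) and the lid subunit Psmd6 (-0.55), both lower, and the core subunit Psma2 (0.89), the PA200 activator Psme4 (0.82) and the lid subunit Psmd3 (0.72), all higher. A dimmer probe of the core subunit Psmb3 was called lower at -0.54, while the brighter one, at 0.32, was not called.

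H2-K1, the heavy chain of the K molecule, has 3 probes, which differed in ratio. Probe 2 (chr17:33609987-33610233, minus strand) read 764 and 1805 in the hyperglycemic mice, against 1738 and 3196 in the pool. Its log2 ratios of -1.19 and -0.82 averaged -1.005 ± 0.26 (SD, n = 2), a 2.01-fold lower signal (limma adjusted p = 0.00364). Probe 1 (chr17:33606564-33606623, minus strand) lies nearer the 3' end, is far brighter and is repeated on 10 spots per array. It averaged 31296 and 51604 in the hyperglycemic mice, against 33723 and 53105 in the pool. The 2 mice were close to the pool on both arrays. The mean log2 ratio was -0.09 ± 0.03 (SD, n = 2) and did not pass the test (limma adjusted p = 0.648, 95% interval -0.45 to 0.26). Probe 2 minus probe 1 was -1.07 in mouse 1 and -0.75 in mouse 2, so the 2 probes give no single value for the gene.

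Probe 3 of H2-K1 (chr17:33609797-33609856, minus strand) was not well above background in either hyperglycemic mouse, and the pool measured it on array 2 alone. No fold is given for it. Class I heavy chain genes share long stretches of sequence, and the array design follows the reference strain, so which heavy chains bind each probe in NOD mice was not tested. Both channels of an array hold the same strain.

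B2m, the light chain that every classical class I molecule needs at the cell surface, also has 3 probes. Probe 2 (chr2:121844106-121844165, plus strand) read 24695 and 42659 in the hyperglycemic mice, against 39067 and 61603 in the pool. Its ratios of -0.66 and -0.53 averaged -0.60 ± 0.09 (SD, n = 2), a 1.51-fold lower signal (limma adjusted p = 0.019). Probe 3 (chr2:121840304-121840363, plus strand), taken from a different transcript entry, was much dimmer. Its ratios were -0.46 and -0.40, with a mean of -0.43 ± 0.04 (SD, n = 2) that just missed the threshold (limma adjusted p = 0.055). Probe 1 (chr2:121844230-121844286, plus strand), on 10 spots per array, had ratios of -0.33 and -0.18 and a mean of -0.26 ± 0.11 (SD, n = 2), and did not pass the test (limma adjusted p = 0.216). All 3 probes lay below 0 in both mice, and probe 2 minus probe 1 was -0.33 and -0.35.

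The repeated spots show how much a single reading varies within an array. For H2-K1 probe 1 in mouse 1, the 9 spots used ran from -0.26 to 0.08 with an SD of 0.09, and 8 of them lay below 0. In mouse 2 its 10 spots ran from -0.26 to 0.30 with an SD of 0.21, and 7 lay below 0. For B2m probe 1 in mouse 1, all 10 spots lay below 0, between -0.45 and -0.16 (SD 0.11). In mouse 2, 8 of its 9 spots did, between -0.33 and 0.06 (SD 0.12). Repeated spots share the same RNA and are technical, so they do not add to n.

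**Figure D2:**
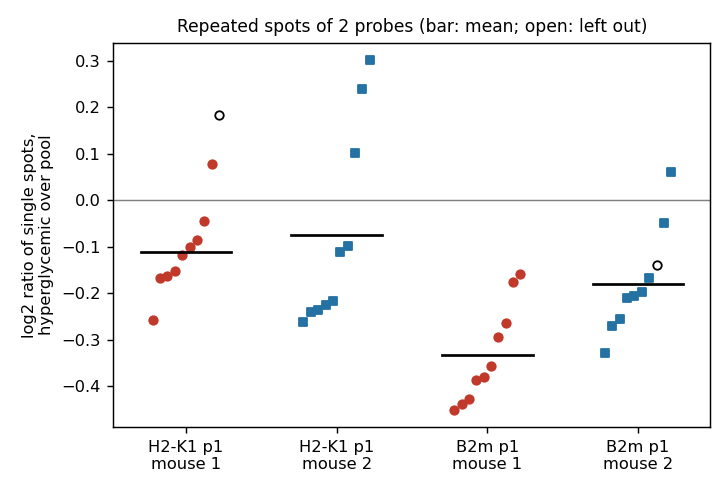
Log2 ratio of each single spot (vertical axis, hyperglycemic mouse over pool) of H2-K1 probe 1 and B2m probe 1 on the arrays of mouse 1 (circles) and mouse 2 (squares). Bars are means of the spots used and open circles are spots left out as outliers; spots of B2m lie lower than 0 in mouse 1 without exception, while those of H2-K1 fall on both sides of 0.

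The transporter and the loading factor gave little that could be tested. Tap1, at chr17:33804121-33804180 (plus strand), stood well above background in the hyperglycemic mouse of array 2 alone. Its processed signals were 318 and 1017 in the hyperglycemic mice, against 380 and 653 in the pool. The ratios of -0.26 and 0.64 point opposite ways, and Tap1 was not tested. Tap2 (chr17:33825052-33825639, plus strand) was not well above background in either hyperglycemic mouse, and the pool measured it on array 2 alone. Its ratios of 0.73 and 0.80 come from signals too dim to give a fold. Both subunits are needed for transport, and neither was measured well enough here to compare with the immunoproteasome genes encoded beside them.

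Tapbp probe 1 (chr17:33539531-33539590, plus strand) was bright in both groups. It read 6829 and 8215 in the hyperglycemic mice, against 4964 and 9387 in the pool. Mouse 1 lay above the pool and mouse 2 below it. The log2 ratios of 0.46 and -0.19 averaged 0.13 ± 0.46 (SD, n = 2; limma adjusted p = 0.605, 95% interval -0.32 to 0.59). Probe 2 (chr17:33536605-33536664, plus strand) was not well above background in either hyperglycemic mouse, and the pool measured it on array 2 alone. No fold is given for this probe.

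**Figure D3:**
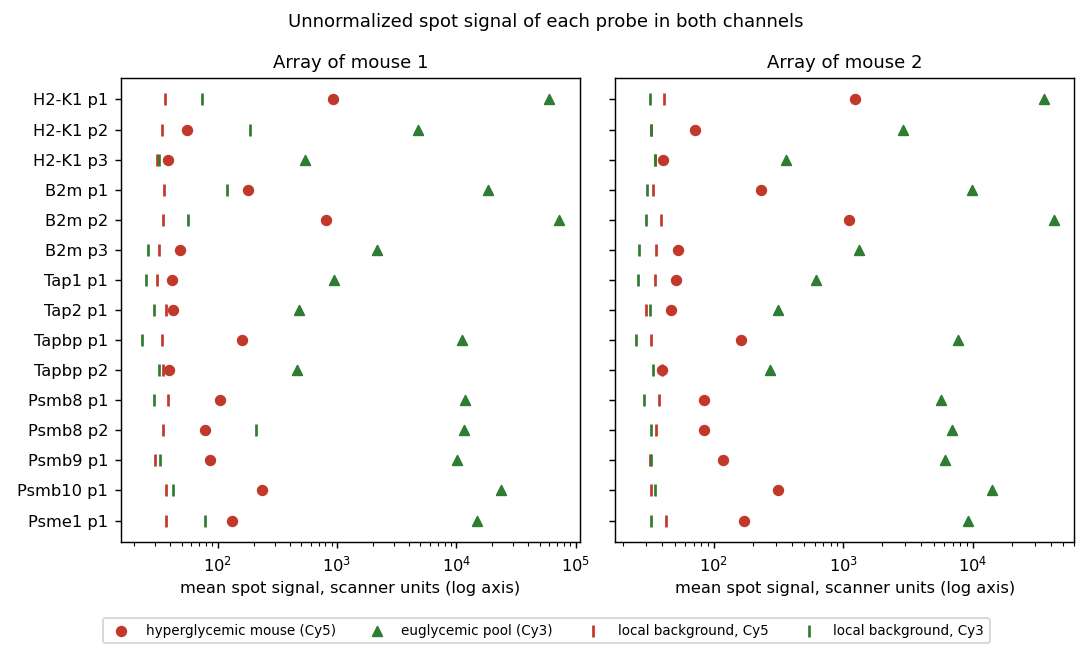
Mean spot signal before any normalization (horizontal log axis, scanner units) of each probe on the array of mouse 1 (left) and mouse 2 (right), for the hyperglycemic mouse in Cy5 (circles) and the euglycemic pool in Cy3 (triangles), with vertical ticks for the local background of each channel. Cy5 circles lie far left of the Cy3 triangles on every row, and those of H2-K1 p3, Tap1, Tap2, Tapbp p2 and the tested B2m p3 sit close to the background ticks.

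The unnormalized signals show how few scanner units carry some of these values. The lowest Cy5 spot signal behind a call was 55.6, for H2-K1 probe 2 in mouse 1, over a local background of 34. B2m probe 3, tested but not called, read 48.4 and 52.8 in the hyperglycemic mice over backgrounds of 32 and 35.5. Psmb8 probe 2 read 78.9 and 84.1 in the hyperglycemic mice over backgrounds of 35 and 36, against 11689 and 6892 in the pool before scaling. B2m probe 2, far from background, read 802 and 1110 in the hyperglycemic mice, against 73087 and 41927 in the pool. 9 of the 11 tested members lay in the brightest 2 deciles of tested probes. The probes of those deciles had medians of 0.0069 and -0.0005, and middle 50% ranges from -0.34 to 0.41 and from -0.35 to 0.42. The LOWESS dye normalization behind these ratios itself adjusts them along brightness. Medians near 0 among equally bright probes are therefore no test of an effect of dye or brightness.

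The direction of the brightest members depended on the normalization. From raw signals with normexp background correction and a loess fitted to all probes, H2-K1 probe 1 had a mean log2 ratio of 2.36, B2m probe 2 of 2.00, Psmb10 of 0.53 and B2m probe 1 of 0.26, all above 0. In that setting limma called 1 member lower, Psmb8 probe 2, and 2 higher, where 0.693% of all 8804 probes tested were called lower and 4.91% higher. The 100 brightest probes had a median of 3.76 there, against 0.13 in the processed ratios, so that fit leaves the bright end off 0. None of the members was among those 100. The brightest decile of tested probes, which held these 4 members, had a median of 1.34 in that fit with both channels above background. With the loess fitted to the tested probes alone, 6 members were called lower and 0 higher, where 7.87% of all tested probes were called lower and 9.71% higher. In that setting the H2-K1 probe 2 call was lost, at a mean of -0.26 (limma adjusted p = 0.107), and Psmb10 was called lower, at -0.33 (limma adjusted p = 0.0464). Both Psmb8 probes, Psmb9, Psme1, H2-K1 probe 2 and B2m probe 3 kept a mean below 0 in each of the settings tried.

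**Figure D4:**
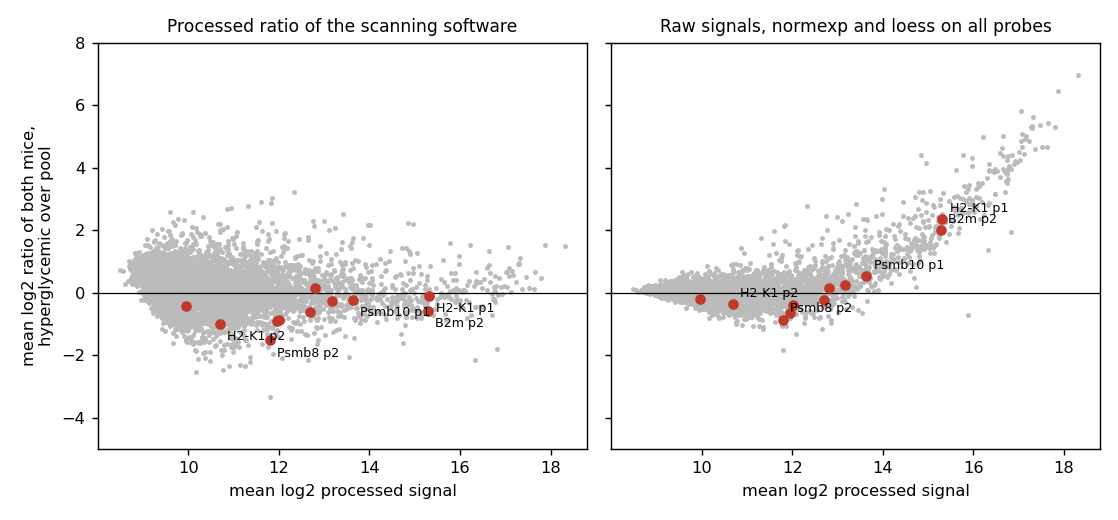
Mean log2 ratio of both mice (vertical axis) against mean log2 processed signal (horizontal axis) for all tested probes (grey) and the 11 tested members (red), in the processed ratios (left) and after normexp and a loess on all probes (right). At right the grey points climb with brightness, and H2-K1 p1 and B2m p2 climb with them. The 100 brightest probes, none of them a member, have a median of 3.76 at right and 0.13 at left.

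Other heavy chains were lower or did not pass the test. Of 12 other class I and class I-like genes tested, 6 were called lower and 0 higher, with a median of -0.34. Cd1d1, which presents lipids, had the lowest mean at -0.82 (limma adjusted p = 0.00548). It was followed by the Qa region genes H2-Q8 (-0.69) and H2-Q5 (-0.55) and by H2-M3 (-0.51), which presents formylated peptides. As with H2-K1, the Qa genes are near-identical copies whose probes may share transcripts. H2-T23 and H2-Q10, both at -0.45, made up the 6. A dimmer probe of H2-Q10 was at -0.27 and not called, and a dimmer probe of H2-Q1 was called lower at -0.61, while its brighter probe, at -0.13, was not. Normexp with a loess on all probes ended these calls, with 0 genes lower and 3 higher (1 higher with both channels above background, and 2 lower at an unadjusted p under 0.05 in limma in either case), and the loess on tested probes called 3 lower. Fcgrt, the neonatal Fc receptor chain that also pairs with B2m, was at 0.22 and not called.

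The partners of peptide supply and loading were mixed. Of 7 tested, 2 were called lower, 1 higher and 4 neither, with a median of 0.08. Calr (calreticulin), a chaperone of the loading complex, was lower at -0.82 and -1.20 (limma adjusted p = 0.00365). Psme2, the partner of Psme1 in the PA28 ring, was lower on both of its probes, at means of -0.69 and -1.10 (limma adjusted p = 0.0142 and 0.00208). Canx (calnexin), which holds new heavy chains, was higher at 0.77 on its brighter probe (limma adjusted p = 0.00692) and at -0.35 on the other, which did not pass the test (limma adjusted p = 0.103). Erap1, the peptide trimming enzyme, and Tapbpl were not well above background in the hyperglycemic mice, and no probe matched the class I transactivator Nlrc5.

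Among 15 tested genes of the interferon-gamma pathway and its targets, 6 were called lower, 2 higher and 7 neither, with a median of -0.34. The interferon-induced GTPase Tgtp1 was at -2.54 and -2.52 (limma adjusted p = 0.000292). Its processed signals were 393 and 585 in hyperglycemic mice 1 and 2. The lowest Cy5 signals counted as well above background on those arrays were 343 and 170. Tap2, at 514 on array 2, was not counted as such, so Tgtp1 was near the limit in both mice. The GTPases Iigp1 (-1.61) and Igtp (-1.57) were also called lower. The receptor chain Ifngr1 (0.63) and the kinase Jak2 (0.70) were called higher, while the second receptor chain Ifngr2 (-0.34) did not pass the test. The probes of the kinase Jak1 disagreed, at 0.07 on the brighter one, which did not pass, and -0.56 on the other, which was called lower (limma adjusted p = 0.0225). Ifng itself was not well above background in the hyperglycemic mice on either of its probes, and the pool measured them on array 2 alone. The MHC class II list, the machinery that shows peptides to CD4 T cells, had 9 tested genes, all called lower, between -0.89 and -0.59, with a median of -0.66. H2-Aa (-0.89), H2-Eb1 (-0.80) and H2-Ab1 (-0.68) are class II chains, and Ifi30 (-0.80) reduces disulfide bonds of antigens in lysosomes. With dim probes admitted, limma called 0 genes of the lists named here, and 7 of 9 class II genes were lower at an unadjusted p under 0.05. With the loess fitted to the tested probes, 5 of the 9 were called lower.

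**Figure D5:**
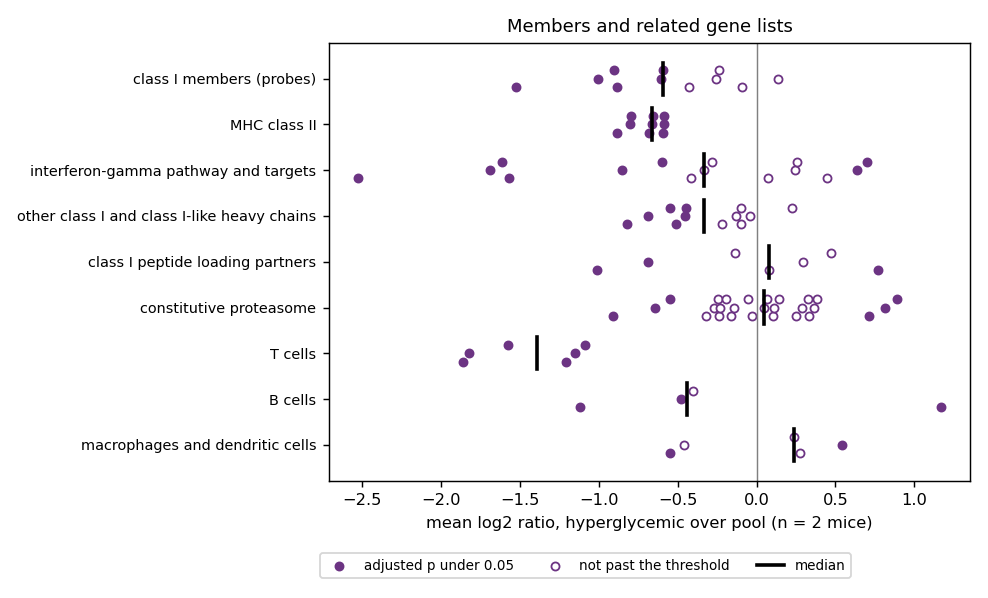
Mean log2 ratio over the 2 hyperglycemic mice against the pool (horizontal axis) for the 11 tested class I probes and for the genes of each related list (rows); filled points passed an adjusted p of 0.05 in limma, open ones did not, and black bars are medians. The class I probes have a median of -0.60, the class II genes of -0.66, the constitutive proteasome of 0.05 and T cell genes of -1.39.

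Markers of T cells were lower in the same mice. All 6 tested T cell genes of 10 on the list were called lower, with a median of -1.39. Cd3g was at -1.86 and Cd8a at -1.83. Their processed signals in hyperglycemic mice 1 and 2 were 555 and 656 for Cd3g, and 576 and 632 for Cd8a. Those lie near the limit described for Tgtp1. Cd3e, Cd4 and Cd8b1 were not well above background in the hyperglycemic mice. Summed processed signals of the 6 tested T cell genes were 8073 and 12111 in the hyperglycemic mice, against 19223 and 29411 in the pool. Of 4 tested B cell genes of 8, 2 were lower, 1 higher and 1 neither, with a median of -0.44. Ms4a1 (-1.12) and Pax5 (1.17) moved in opposite directions, but Pax5 lay in the dimmest decile of tested probes. That decile had a median of 0.49 and a middle 50% range from 0.12 to 0.79, so most of its probes lie above 0. Cd79a, Cd22 and Blk were not well above background in the hyperglycemic mice. The sums of the 4 tested B cell genes were 11474 and 18883 in the hyperglycemic mice, against 16251 and 26260 in the pool. Of 5 tested macrophage and dendritic cell genes of 13, 1 was lower (C1qa, -0.55), 1 higher (Adgre1, 0.54) and 3 neither. Their median was 0.24 and their sums were 73832 and 129493 in the hyperglycemic mice, against 78777 and 105367 in the pool. Lyz2 made up most of each sum, at 60068 and 103067 in the hyperglycemic mice and 60153 and 73999 in the pool. The median is that of its brighter probe, while its dimmer probe was at -0.39 and not called. T cells, B cells and antigen-presenting cells all express class I genes. The part of a shift in cell types in the class I ratios was not tested.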

How the data were processed

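Total RNA (1 ug per sample) of pancreatic lymph nodes was labelled and read on 2 two-colour Agilent-014868 arrays, per the labels and file headers. Per the file headers, Agilent Feature Extraction 10.7.3.1 gave mean spot and background intensity, and processed intensity after background subtraction, spatial detrending and linear and LOWESS dye normalization. Per the file headers, the deposited log ratio column is a log10 ratio, with Cy5 on top, and was converted to log2 here. The deposited value table holds log2 ratios for 5072 gene probes, which differ from the converted ratios by at most 2.77e-06; its columns have medians of 0.08 and 0.03, and how its probes were chosen is not given in the sources used here. Positions of probes follow build mm8, as the files give them, with no annotation of that build used here, so exons and introns are not stated.

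On each array 43379 of 45018 spots carried gene probes, and 338 and 184 of them, marked as outliers, were left out. Spots of a probe were averaged. limma 3.58.1 in R 4.3.3 tested mean log2 ratios against 0 for probes whose 4 readings (2 channels, 2 arrays) all stood well above background (1 residual degree of freedom, two-sided); tables were made with Python 3.11.15 and pandas 2.3.3. The code was tested on simulated data. Each hyperglycemic mouse was a replicate and the pool 1 control sample; the number of arrays limits precision. Symbols were updated through a RefSeq table, by accession for 23366 probes, by symbol for 6739 and by synonym for 2918, and 8151 stayed unmatched. In lists, a gene took its brightest tested probe. The rule for names was every member probe, up to 4 called genes with the largest change per pathway list (with Psmb5, Psmb6, Psmb7, Psme2 and Nlrc5 in any case) and up to 2 genes per marker list; 1 gene this rule would name is not reported here. Psmd6, Psmd3, Erap1, Tapbpl, H2-T23, H2-Q10, Fcgrt, H2-Q1, Psmb3, Ifngr1, Jak2, Ifngr2, Jak1, Ifng, Cd3e, Cd4, Cd8b1, Cd79a, Cd22, Blk, Lyz2, Cxcl13 and Lyve1 were named after their values were seen. The list of other heavy chains also held H2-Ke6, an enzyme gene, which was not tested for being dim. Members and lists were chosen with earlier results of these data known. Alternatives were normexp (offset 50) with loess (span 0.3) on all or on tested probes, no background correction, median centring, a further loess, looser filters on dim probes, an intensity trend in the variance, the deposited value table and each array alone.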

Additional observations from a re-analysis of the deposited data

How the results depend on the processing

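No paired analysis was possible because each array sets 1 hyperglycemic mouse against the pool, and no other group carries replicate numbers. Main counts were 6 members lower and 0 higher, and 930 lower and 1275 higher of all probes. The members gave 6 or 7 lower and 0 higher with the deposited value table, an intensity trend, median-centred or further loess-normalized processed ratios, or a loess fitted to the tested probes with or without normexp. With normexp and a loess on all probes, and 1 channel above background, limma called 1 member lower and 2 higher (4 lower and 4 higher at an unadjusted p under 0.05), 61 probes lower and 432 higher over the whole array, and in the lists 2 interferon-gamma genes lower, 1 interferon-gamma gene, 2 proteasome genes and 3 heavy chains higher, and 0 other list genes in either direction. At an unadjusted p under 0.05, 1 loading partner, 2 heavy chains, 3 proteasome, 6 interferon-gamma and 5 class II genes were lower there, and 3, 3, 4, 4 and 2 of these lists were higher. With both channels above background it called 0 members (4 lower and 3 higher at an unadjusted p under 0.05) and 2 probes lower and 188 higher over the whole array. In the lists it called 1 heavy chain higher and 0 genes otherwise; at an unadjusted p under 0.05, 0 loading partners, 2 heavy chains, 0 proteasome, 4 interferon-gamma and 5 class II genes were lower, and 3, 3, 4, 4 and 2 higher. In both of these settings B2m probe 1 was at 0.26, B2m probe 2 at 2.00, H2-K1 probe 1 at 2.36 and Psmb10 at 0.53. Normexp with median centring put 5067 probes lower and 0 higher, with a median of -2.55. All 11 members, 7 loading partners, 12 heavy chains, 27 proteasome and 15 interferon-gamma genes were then lower and 0 of them higher, with Tapbp at -3.71, so that setting says nothing about the members. Tapbp was at -0.080 and -0.052 with the loess on tested probes, with and without normexp. That loess with normexp called 399 probes lower and 492 higher, 1 loading partner, 3 heavy chains, 0 proteasome genes and 5 class II genes lower. The loess on tested probes without background correction, the further loess and the trend each called 2 loading partners higher. With processed ratios of probes above background in 1 channel, or of all probes, limma called 0 members, 0 probes and 0 list genes in either direction. At an unadjusted p under 0.05, 6 and 8 members and 2136 and 2578 probes were lower there, and 0 and 1 members and 1255 and 1717 probes higher. The variance prior of those settings had 2.16 and 0.441 degrees of freedom, against 6.35 in the main one. They also tested 8804 and 41162 probes, against 5068, and the reason for the lost calls was not tested. With either array alone, a value without a test, members ranged from -1.64 to 0.46, and Tapbp alone changed sign. Depth limits the Cy5 channel: 4 of 15 member probes could not be tested.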

Other observations

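Genes of the pancreas, red cells and stroma were read in the same nodes. All 13 exocrine pancreas genes on the array were tested, of which 7 were called higher in the hyperglycemic mice, 2 lower and 4 neither, with a median log2 ratio of 0.65. The trypsinogen Try5 was at 1.38 and 1.64 (limma adjusted p = 0.000943), while the amylase Amy2a5 was at -2.06 and -2.24 (limma adjusted p = 0.000448). The summed processed signal of the 13 was 1707471 and 2934701 in the hyperglycemic mice, against 1344142 and 1963626 in the pool. The 3 tested red cell genes were all higher, with a median of 1.10, among them the globin Hba-a1 (1.23) and the heme synthesis enzyme Alas2 (1.10).

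Of 6 tested genes of lymph node stroma and endothelium, 2 were lower, 2 higher and 2 neither, with a median of -0.42. Ccl19, a chemokine that draws T cells and dendritic cells into the node, was at -1.04 and -1.03 (limma adjusted p = 0.0025), and the collagen gene Col3a1 was at -0.76. The 2 called higher were Cxcl13 and Lyve1, each with a mean of 0.71 (limma adjusted p = 0.0119 and 0.0149). The class II gene H2-Ea, which NOD mice are known not to express, was not well above background in either channel on either array.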
